A study of Mus musculus with 9 samples.

Results

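MOVAS, an immortal line of aortic smooth muscle cells from the mouse, was compared with and without DON. The comparison took every row of the count table that held enough counts to test in the 3 DON libraries and the 3 control libraries, which was 4731 of 53379 rows. Both groups came from the same line, labelled C57BL/6, grown in a medium with 10% serum and geneticin and used before confluence. The control cells had no treatment, and the DON cells had DON for 24 h at a labelled dose of 50 mM. Another group of 3 libraries, labelled DON with 2 mM glutamate for 24 h, entered the fit only to help estimate the spread between libraries. The labels do not say whether replicates were separate cultures, so the p-values may rest on technical spread alone. The counts do not show which dose the cells met, and a single immortal line stands here for the aortic wall.

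DON is a diazo analogue of glutamine. It reacts with enzymes that take the amide nitrogen of glutamine, among them glutaminase, asparagine synthetase and the amidotransferases of purine, pyrimidine and hexosamine synthesis. Cells short of an amino acid gather uncharged tRNA, which activates the kinase Gcn2, slows translation in general and favours translation of the transcription factor Atf4. Atf4 and its partners switch on genes for amino acid transport and synthesis, mitochondrial folate metabolism and tRNA charging. Cholesterol synthesis genes answer to another set of factors, the SREBPs, which sense sterols. In the artery wall, smooth muscle cells can keep a contractile state or shift to one that divides and lays down matrix.

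The counts lay mostly on the strand opposite the named gene. Rows that overlap an exon of a coding gene on the other strand were 10.3% of the table and held 88.0% ± 0.40 of the counts (SD, n = 9). A row is therefore read below as the protein-coding gene that its exons overlap on the other strand by at least 50 bases, where there is exactly 1, and the row with most counts stands for the gene. This reading named 2476 genes from 2699 of the tested rows. A value covers only the overlapping part of the gene, so levels are not compared between genes. Levels are in CPM, which are counts scaled to the total of the tested rows with a composition factor for each library. The control and DON libraries held from 1304980 to 1342286 counts each, which leaves wide errors for rows of few counts.

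The labelled cell type was checked in the same way. Des, Smtn and Tagln, the smooth muscle markers with an opposite-strand row, together held 1227 to 1420 counts in the control libraries and 996 to 1146 in the DON libraries. Only Smtn and Tagln had enough counts to test, and Des did not. The defining markers Acta2, Myh11 and Cnn1 have no such row and could not be read. Eng, an endothelial marker, held 1 to 2 counts in either group, and the leukocyte markers Cd3e and Csf1r held 0 to 4. Their rows cover only parts of these genes, so few counts do not show that such cells were absent. Pdgfra, listed as a fibroblast marker, held 21 to 24 counts in the control libraries and 4 to 17 in the DON libraries, and its part in other results was not tested. In bulk RNA, fewer cells of a type and less RNA per cell cannot be told apart.

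DON changed a minority of the rows, and most changes were small. By edgeR's quasi-likelihood test with Benjamini-Hochberg adjustment, 299 of 4731 rows (6.32%) had an adjusted p under 0.05. Of these, 125 rows (2.64%) were higher with DON and 174 (3.68%) were lower. Among the 2476 opposite-strand genes 211 (8.52%) were called, of which 84 (3.39%) were higher and 127 (5.13%) were lower. Without composition scaling, which moves the median of all rows by 0.05 on the log2 scale, the split turned to 123 genes higher and 87 lower, and to 180 rows higher and 126 lower. The lean towards lower calls therefore depends on the scaling.

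The size of the changes was uneven between the directions. Of the called genes, 20 were at least 2-fold higher and 5 were at least 2-fold lower, whereas 145 changed by less than 1.5-fold. The median log2 change was 0.55 for the genes that rose and -0.42 for those that fell, beside -0.004 for all genes read. Leaving out 1 library at a time kept 79 genes (3.19%) called in all 9 such fits, 37 higher and 42 lower, and only genes of that kind enter the lists of largest changes below. The 3 DON libraries lay wholly above or below the 3 controls in 700 of all genes read (28.3%) and in 208 of the 211 called. Atp5o, given below, is 1 of the 3 called genes whose groups overlapped.

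Calls rose with level. The genes read were ranked by mean count and split into 3 classes. In the lowest class 26 of 825 were called (3.15%), with a median standard error of 0.26 on the log2 scale. The middle class held 66 calls among 825 genes (8.0%) and the highest class 119 among 826 (14.4%), at median standard errors of 0.13 and 0.09. Called genes had a median absolute log2 change of 0.87 in the lowest class and 0.40 in the highest. Small changes of weakly counted genes were thus not detectable at this depth.

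**Figure D1:**
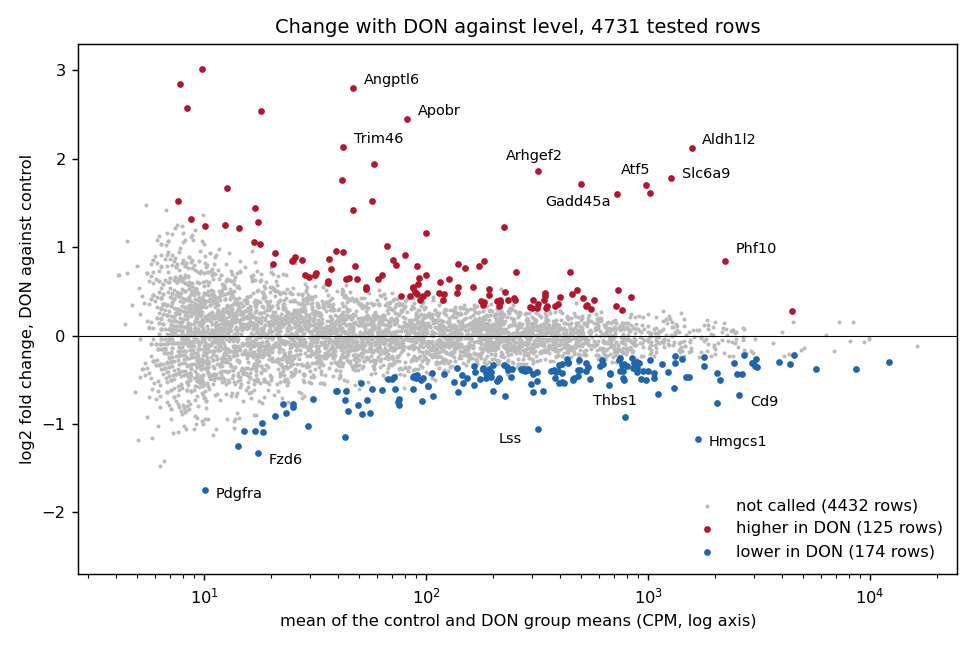
Each point is 1 of the 4731 tested rows, with the mean of the control and DON group means in CPM on a log axis and the log2 fold change of DON against control. The 125 red rows were called higher and the 174 blue rows lower, labels give opposite-strand genes, and well-counted rows such as Aldh1l2 and Hmgcs1 stand apart from a band that narrows to the right.

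Most measured genes listed for the amino acid starvation response, the Atf4 programme, rose. Which stress raised them was not tested. The list for this response holds 35 genes, 6 of which were measured, and 5 of the 6 were called higher with a median log2 change of 1.43. Among all genes read 3.39% were called higher and 5.13% lower, shares that belong beside the counts of every list below. The lists were chosen with earlier results of these data known, so a count above these shares is not a test. The largest rise in this list was that of Aldh1l2, the mitochondrial enzyme that burns formyl-folate to make NADPH. It read 542, 594 and 615 CPM in the control libraries and 2460, 2726 and 2468 CPM in the DON libraries. The 2 groups lay far apart, and the rise was 4.37-fold (log2 2.13 ± 0.08, SE; adjusted p = 2.20e-16), the smallest p in the table. On mm10 the gene runs along chromosome 10 from 83487450 to 83534140 on the minus strand, and row D10Wsu102e covers 1056 bases of its exons.

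Slc6a9 encodes the glycine transporter that also serves glutathione supply. It read 564, 606 and 548 CPM in controls and 1868, 1996 and 2040 CPM with DON. All DON libraries were more than 3 times any control, with a log2 change of 1.78 ± 0.07 (adjusted p = 4.55e-15). A second row, Gm17114, covers 511 bases of the same gene and gave a log2 change of 1.60 ± 0.08 (adjusted p = 9.36e-14). Whether the rows share reads was not tested.

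Atf5 and Ddit3 are transcription factors that act downstream of Atf4, and Ddit3 (CHOP) is a marker of prolonged stress. Atf5 went from 457, 498 and 425 CPM to 1690, 1330 and 1485 CPM, a log2 change of 1.71 ± 0.11 (adjusted p = 5.65e-11). Its DON libraries spread more widely than its controls but did not approach them. Ddit3 went from 70.1, 56.5 and 58.6 CPM to 129, 150 and 134 CPM, a log2 change of 1.16 ± 0.13 (adjusted p = 6.44e-07). Both rest on short overlaps, 82 bases for Atf5 and 68 for Ddit3. Cebpb, another leucine-zipper factor of stressed cells, moved little, from 476, 466 and 450.1 CPM to 575, 589 and 591 CPM (log2 0.33 ± 0.09, adjusted p = 0.0309). Its call ended without DON 2, DON 3 or any 1 of the controls, with adjusted p up to 0.113. Psph, which makes serine, did not pass, at 56.6 ± 6.76 CPM in controls and 53.4 ± 10.3 CPM with DON (SD, n = 3; log2 -0.08 ± 0.18, adjusted p = 0.863).

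Pck2 and Mars are further genes that Atf4 is known to drive. Pck2, the mitochondrial PEP carboxykinase, read 10.02, 10.99 and 6.25 CPM in controls and 24.7, 26.3 and 23.5 CPM with DON (log2 1.44 ± 0.27, adjusted p = 0.00154). Its row covers 53 bases of the gene. Mars, the methionyl-tRNA synthetase, read 137, 126 and 138 CPM in controls and 304, 324 and 315 CPM with DON, with almost no scatter in either group (log2 1.23 ± 0.09, adjusted p = 6.91e-10). It is read through row Ddit3, which covers 68 bases of Mars, the same short overlap that gives Ddit3. The part of reads given the wrong strand was not tested. Of the 37 listed aminoacyl-tRNA synthetases 9 were measured and Mars alone was called, with a list median of 0.14. Hars, for histidine, was at log2 -0.31 ± 0.11 (adjusted p = 0.0834; called without DON 1 or DON plus glutamate 1), and Aars, for alanine, at 0.74 ± 0.42 (adjusted p = 0.365).

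One-carbon metabolism beyond the mitochondrial folate enzyme changed in few members. The list of serine, glycine and folate genes holds 27, of which 8 were measured and 3 were called higher, with a median of 0.03. Besides Aldh1l2 and Slc6a9 the third was Shmt1, the cytosolic enzyme that converts serine to glycine. It went from 43.1, 51.04 and 50.8 CPM to 62.1, 94.3 and 76.5 CPM (log2 0.68 ± 0.16, adjusted p = 0.00895), and the call ended without DON 2 or control 1 (adjusted p up to 0.0951). Mat2a, which makes the methyl donor S-adenosylmethionine, was at -0.17 ± 0.08 (adjusted p = 0.2702), and Aldh1l1, the cytosolic counterpart of Aldh1l2, at -0.47 ± 0.42 (adjusted p = 0.603).

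Promoters of the 15 largest rises and 15 largest falls were searched for the core of the element that Atf4 binds with C/EBP partners, TGATGNAA. The search took both strands of the 300 bases from 250 before to 50 after each RefSeq start (GRCm38.p6). The letters occur in 3.97% of 32851 promoters. Of the 15 genes named as largest rises 14 had a promoter in the table, and 4 held a match, namely Trim46, Arhgef2, Rab39b and Pck2. A gene with several promoters was counted if any of them matched. The count of genes is therefore not comparable with the share of promoters. A match is a description of the letters, not a bound site. The 250 bases before the start of Pck2 (chr14:55540016-55540265, plus strand) are shown because this gene carries both that core and a CCAAT box (CCAAT) close to its start. Trim46 also held both in the same promoter, at -172 and -142 from its start, and is not printed. Capitals mark the core, on the reverse strand as TTACATCA, and the CCAAT box.
Pck2: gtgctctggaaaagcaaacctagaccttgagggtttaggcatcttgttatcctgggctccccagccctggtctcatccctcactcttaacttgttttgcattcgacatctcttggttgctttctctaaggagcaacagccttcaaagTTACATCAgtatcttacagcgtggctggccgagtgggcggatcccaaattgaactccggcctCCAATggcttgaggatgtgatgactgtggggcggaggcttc

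Cholesterol synthesis genes fell together. Of 25 listed genes 6 were measured, 5 were called lower and all 5 stayed called in every fit without 1 library, with a list median of -0.90. Hmgcs1, the synthase that commits acetyl units to the pathway, read 2325, 2287 and 2366 CPM in controls and 964, 1104 and 1040 CPM with DON. Controls differed by little, and each DON library held under 1 in 2 of any control. The fall was 2.25-fold (log2 -1.17 ± 0.07, adjusted p = 1.32e-11). The gene runs along chromosome 13 from 119690379 to 119708260 on the plus strand, and row AC123738.2 covers 557 bases of its exons.

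The later steps moved the same way. Idi1, the isomerase that makes the isoprenoid building block, went from 63.95, 74.6 and 62.5 CPM to 32.9, 30.9 and 44.7 CPM (log2 -0.89 ± 0.18, adjusted p = 0.00244). Lss, which folds squalene epoxide into lanosterol, went from 409.9, 435 and 446 CPM to 228, 174 and 219.8 CPM (log2 -1.05 ± 0.10, adjusted p = 2.80e-08). Cyp51, the lanosterol demethylase, went from 133, 127 and 138 CPM to 93.5, 69.6 and 84.9 CPM (log2 -0.68 ± 0.13, adjusted p = 0.00121). In all 3 genes DON 2 was the lowest library. Fdft1, squalene synthase, was also lower in all 3 DON libraries but did not pass, at 14.03 ± 1.39 CPM against 8.86 ± 1.133 CPM (SD, n = 3; log2 -0.66 ± 0.34, adjusted p = 0.294).

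Fatty acid genes were hardly covered, with 2 of 20 measured. Acss2, which makes acetyl-CoA from acetate, went from 103, 123 and 106 CPM to 85.3, 79.6 and 70.5 CPM (log2 -0.50 ± 0.13, adjusted p = 0.0191). The call ended without DON 2, DON 3 or control 2 (adjusted p up to 0.133). A second row for the gene, Ggt7, read 59.5 CPM in controls and 26.8 CPM with DON (log2 -1.15 ± 0.21, adjusted p = 0.00106).

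The upstream 250 bases of the 3 cholesterol genes below are shown because the genes fell together and share a box. Capitals mark the NF-Y box, CCAAT or its reverse ATTGG, in all 3, a sterol element core (TCACNCCA, searched on both strands) in Hmgcs1 and the core TGATGNAA in Idi1. The NF-Y box is in 37.4% of all promoters of 300 bases and the sterol core in 4.36%. Of the 15 largest falls 12 had a promoter in the table, 5 of them held the NF-Y box (Hmgcs1, Lss, Idi1, Cyp51 and Tes) and Hmgcs1 held the sterol core. Among the 14 rises with a promoter, 7 held the NF-Y box and 2 the sterol core. These counts take genes with a match in any promoter, so they are not comparable with the shares of promoters. The stretches are chr13:119690101-119690350 for Hmgcs1, chr13:8885356-8885605 for Idi1 and chr10:76531355-76531604 for Lss, all on the plus strand of GRCm38.p6 from RefSeq.
Hmgcs1: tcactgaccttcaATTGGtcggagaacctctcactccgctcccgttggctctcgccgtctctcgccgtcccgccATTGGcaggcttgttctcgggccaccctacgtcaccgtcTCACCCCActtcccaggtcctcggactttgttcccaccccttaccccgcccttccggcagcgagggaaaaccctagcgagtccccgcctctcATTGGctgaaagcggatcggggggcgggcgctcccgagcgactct
Idi1: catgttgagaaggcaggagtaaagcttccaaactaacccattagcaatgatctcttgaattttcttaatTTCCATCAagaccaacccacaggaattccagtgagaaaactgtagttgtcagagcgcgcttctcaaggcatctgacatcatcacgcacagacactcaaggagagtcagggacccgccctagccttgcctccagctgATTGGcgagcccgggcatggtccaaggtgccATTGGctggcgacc
Lss: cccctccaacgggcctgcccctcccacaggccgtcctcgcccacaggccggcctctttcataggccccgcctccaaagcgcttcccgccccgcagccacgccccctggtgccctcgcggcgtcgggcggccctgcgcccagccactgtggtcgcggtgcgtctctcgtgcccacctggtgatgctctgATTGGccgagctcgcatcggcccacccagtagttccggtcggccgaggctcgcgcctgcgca

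Among the other large rises, several had low control levels. At such levels a row may also hold reads of the gene it is named for, which was not tested. Rows Nars and Slc38a1, with nothing annotated opposite, rose from means of 26.8 to 51.8 CPM and of 14.3 to 27.3 CPM. Their calls did not hold in every fit without 1 library. Angptl6, a secreted angiopoietin-like factor, read 6.16, 12.6 and 16.4 CPM in controls and 88.3, 81.2 and 76.5 CPM with DON (log2 2.80 ± 0.23, adjusted p = 2.92e-09). Apobr, a receptor for apolipoprotein B particles, went from 21.6, 27.5 and 26.6 CPM to 134, 143 and 139 CPM (log2 2.46 ± 0.15, adjusted p = 1.32e-11). Its second row, Il27, went from a mean of 2.07 to 17.4 CPM (log2 3.01 ± 0.50). Rows Gm25579 and Eif3c, which lie before Apobr on chromosome 7 with no annotated gene opposite, also rose, by 2.58 ± 0.43 and 1.94 ± 0.18. Whether the Apobr reading belongs to a longer transcript on that strand was not tested. B4galnt2, a glycosyltransferase of cell-surface antigens, went from 6.16, 6.28 and 3.12 CPM to 31.4, 37.9 and 22.7 CPM (log2 2.54 ± 0.31). Maats1, a protein of cilia, had the largest change at log2 2.85 ± 0.54, but its controls were 0, 3.93 and 1.56 CPM, with 1 control at no count. Without control 2 that value became 3.98. Akr1b7, an aldo-keto reductase, was at 1.67 ± 0.35, and 2.28 without control 2. Its call ended without control 3, DON 1 and DON plus glutamate 2 together, the libraries with most rows detected in each group (adjusted p = 0.0625).

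Other large rises had more counts behind them. Gadd45a, a growth arrest and DNA damage gene that other stresses also raise, went from 253, 250.5 and 198 CPM to 792, 763 and 748 CPM (log2 1.72 ± 0.09, adjusted p = 1.05e-12). Plk3, the other measured gene of the 24 p53 targets listed, did not pass (log2 0.88 ± 0.37, adjusted p = 0.181). Arhgef2, the microtubule-bound exchange factor that activates RhoA, went from 154, 132 and 128 CPM to 548, 486 and 469.9 CPM (log2 1.86 ± 0.11, adjusted p = 2.89e-12). Trim46, which bundles microtubules in axons, went from 17.7, 14.9 and 14.1 CPM to 64.3, 83.5 and 59.1 CPM (log2 2.14 ± 0.20). Rab39b, a small GTPase of vesicle traffic, and Paqr3, a Golgi membrane protein, rose by 1.52 ± 0.17 and 1.42 ± 0.18 on the log2 scale.

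Other falls called in every fit without 1 library lay outside cholesterol synthesis. Cd9, a tetraspanin of the cell surface, went from 2983, 3465 and 3026 CPM to 2265, 1744 and 1912 CPM (log2 -0.68 ± 0.08, adjusted p = 4.34e-06). Prdx2, a peroxiredoxin that removes hydrogen peroxide, went from 1385, 1750 and 1581 CPM to 1142, 1000 and 984 CPM (log2 -0.59 ± 0.08, adjusted p = 3.77e-05). A second row of Prdx2, of far fewer counts, was at 0.08 ± 0.34 and did not pass. Btd, which recycles biotin, was at log2 -0.78 ± 0.15, Vwa1, a matrix protein, at -0.73 ± 0.16, Sdc3, a cell-surface proteoglycan, at -0.63 ± 0.10, and Tes, a focal adhesion protein, at -0.56 ± 0.11. Serpinb9b, a protease inhibitor, was at -0.64 ± 0.09, and Tmem176b, a membrane protein, at -0.56 ± 0.08. Bcat2, the mitochondrial transaminase of branched-chain amino acids, went from 186, 164 and 172 CPM to 131, 112 and 118 CPM (log2 -0.53 ± 0.11). It was the 1 called of 6 measured genes among 23 of branched-chain and propionate breakdown. The median of that list was 0.07 and its highest value 0.46.

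**Figure D2:**
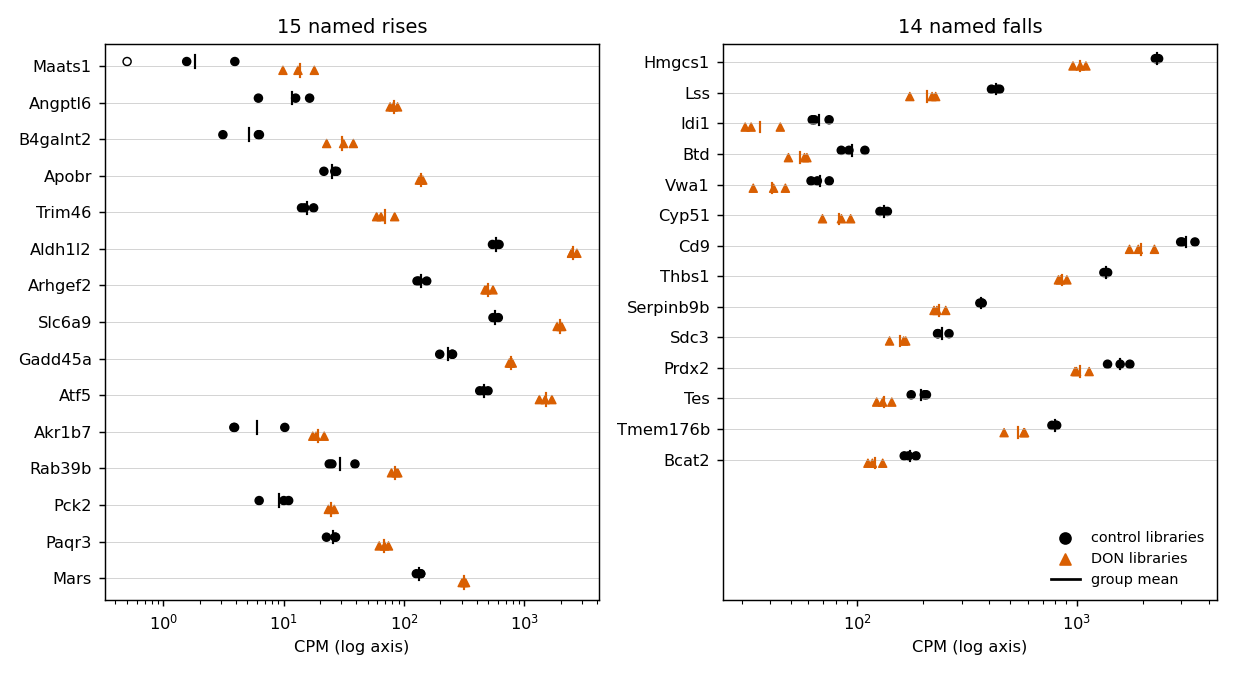
CPM on a log axis in each control library (black circles) and DON library (orange triangles) for the 15 largest rises and 14 of the 15 largest falls, with short lines at the group means. An open circle at the left edge marks the Maats1 control with no count, and in each gene the libraries of the 2 groups lie apart.

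The measured genes listed for TGF-beta and YAP signalling, ligands among them, fell, and so did 1 of the contractile genes. Of 22 listed TGF-beta and YAP genes 4 were measured and all 4 were called lower, with a median of -0.58. Thbs1, the matrix protein thrombospondin, went from 1364, 1333 and 1386 CPM to 845, 827 and 904 CPM (log2 -0.66 ± 0.07, adjusted p = 8.17e-07). Tgfb3, a TGF-beta ligand, went from 259.7, 232 and 258 CPM to 177, 163 and 192 CPM (log2 -0.49 ± 0.10, adjusted p = 0.00266), and its second row was at -0.64 ± 0.13. Both stayed called without any 1 library. Tgfb2, a further ligand, went from 20.03, 29.1 and 23.4 CPM to 12.7, 10.1 and 13.6 CPM (log2 -0.99 ± 0.25), a call that ended without DON 2 or control 2 (adjusted p up to 0.124). Ccn2, a matrix-bound growth factor, went from 425, 423 and 401 CPM to 329, 302 and 312 CPM (log2 -0.40 ± 0.11), a call that ended without DON 2, DON 3, control 1 or control 2 (adjusted p up to 0.0954).

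Of 22 contractile genes 3 were measured and 1 was called lower, with a median of -0.30. Tagln (SM22), which binds actin in smooth muscle, went from 242, 266 and 229.7 CPM to 165, 188 and 164 CPM (log2 -0.52 ± 0.13, adjusted p = 0.0132), and the call ended without DON 3 or control 2 (adjusted p up to 0.0871). Smtn, a smooth muscle cytoskeletal protein, was at -0.30 ± 0.10 (adjusted p = 0.0607) and Vcl, the focal adhesion protein vinculin, at -0.16 ± 0.07 (adjusted p = 0.1902). Both were lower in all 3 DON libraries without passing. Chosen after their values were seen, Ilk, a kinase of integrin contacts, was at -0.31 ± 0.07, the calpain proteases Capn1 and Capn2 at -0.50 ± 0.08 and -0.43 ± 0.07, and the actin-branching subunit Arpc1a at -0.50 ± 0.10. These 4 were called in every fit without 1 library. Ilk alone of them lost the call without control 3, DON 1 and DON plus glutamate 2 together (adjusted p = 0.08). A second row of Ilk, Rrp8, was at -0.24 ± 0.10 and did not pass (adjusted p = 0.1989).

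Collagens and elastic matrix genes gave no call. None of the 5 measured of 34 collagens and elastic matrix genes passed in edgeR, DESeq2 or limma voom, and 1 had an unadjusted p under 0.05. The list median was -0.13. Efemp2, which helps elastic fibres assemble, was at 32.7 ± 3.22 CPM in controls and 23.03 ± 4.99 CPM with DON (SD, n = 3; log2 -0.50 ± 0.22, adjusted p = 0.1997). Fbn1, fibrillin, was at -0.13 ± 0.15 (adjusted p = 0.696). Of 19 genes that process and crosslink collagen 3 were measured and none passed in edgeR, while Tgm2, a crosslinking transglutaminase, passed in DESeq2 and voom and stood at -0.24 ± 0.07 (adjusted p = 0.0508) in edgeR. Of 22 matrix proteases and inhibitors 5 were measured, and Timp3, an inhibitor of matrix proteases, was called higher, from 3863, 3938 and 4196 CPM to 4558, 5296 and 4690 CPM (log2 0.28 ± 0.07). That call ended without DON 2, control 1 or control 2 (adjusted p up to 0.123) and when low rows were not filtered out (adjusted p = 0.155).

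Growth factors and receptors split. Of 47 listed 10 were measured, with 1 higher and 3 lower and a median of 0.003. Angptl6 is the member that rose. Ereg, an EGF receptor ligand, went from 20.03, 27.5 and 27.4 CPM to 10.5, 11.6 and 12.9 CPM (log2 -1.09 ± 0.26), Fzd6, a Wnt receptor, from 21.6, 32.98 and 20.3 CPM to 11.97, 6.96 and 10.6 CPM (log2 -1.33 ± 0.30), and Pdgfra, a PDGF receptor, from 16.9, 14.1 and 15.6 CPM to 8.23, 2.32 and 3.03 CPM (log2 -1.75 ± 0.44). All 3 calls rest on few counts, and DESeq2 gave none of the 3 an adjusted p. The Ereg call ended without control 2 (adjusted p = 0.0532), the Fzd6 call without DON 2 or control 2 (up to 0.0773), and the Pdgfra call without DON 2, DON 3 or control 1 (up to 0.0899). Without DON 1 the Pdgfra value was -2.50. Nrg1, another EGF-family ligand, was at -0.56 ± 0.18 (adjusted p = 0.0565).

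Cell cycle genes that changed were lower. Of 35 genes of G2 and mitosis 10 were measured and 5 were called lower, with a median of -0.27. Plk1, the main mitotic kinase of this family, went from 1080, 1054 and 1106 CPM to 776, 821 and 863 CPM (log2 -0.40 ± 0.08, adjusted p = 0.00186). Cdc25b, the phosphatase that starts mitosis, went from 453, 460.2 and 424 CPM to 367, 316 and 327 CPM (log2 -0.40 ± 0.09, adjusted p = 0.00439). These were the pair called without any 1 library. Prc1, of the spindle midzone, was at -0.31 ± 0.07, a call that ended without DON 3 (adjusted p = 0.0531). Kif4, a chromosome kinesin, was at -0.40 ± 0.10, a call that ended without DON 2, DON 3, control 1 or control 3 (up to 0.0713). Nek2, a centrosome kinase, read 274, 286 and 281 CPM in controls and 228, 73.5 and 222 CPM with DON, so that DON 2 stood apart. Its value of -0.68 ± 0.20 lost the call without DON 2, without any 1 control or without DON plus glutamate 3 (up to 0.137), and in DESeq2 (adjusted p = 0.33).

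Of 33 genes of G1, S phase and replication 11 were measured and 1 was called, near the 8.52% called among all genes read, with a median of -0.09. Ccnd1, the cyclin that drives cells out of G1, went from 1751, 1754 and 1810 CPM to 1222, 1253 and 1367 CPM (log2 -0.47 ± 0.07, adjusted p = 9.74e-05), and was called without any 1 library. Its relatives were not called, with Ccnd3 at -0.17 ± 0.08 (adjusted p = 0.254) and Ccnd2 at -0.10 ± 0.07 (adjusted p = 0.498). The replication helicase subunit Mcm7 was at 0.14 ± 0.11 (adjusted p = 0.543).

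Interferon-stimulated genes that changed were lower too. Of 34 listed 8 were measured and 4 were called lower, with a median of -0.35. Tapbp, which loads peptides on class I molecules, went from 2530, 2625 and 2223 CPM to 1848, 1541 and 1809 CPM (log2 -0.51 ± 0.08, adjusted p = 0.000155). Dhx58, a sensor of viral RNA, went from 584, 546 and 539 CPM to 385, 403 and 428 CPM (log2 -0.46 ± 0.09, adjusted p = 0.00254). Both were called without any 1 library. Usp18, which damps interferon signalling, was at -0.33 ± 0.08, a call that ended without DON 3 or control 1 (up to 0.0626). Ifi35, an interferon-induced protein, was at -0.23 ± 0.07, a call that ended without each of DON 1, DON 2, DON 3, DON plus glutamate 2 and any 1 control (up to 0.147). Parp9 and Dtx3l, partner proteins that share an overlap, were at -0.39 ± 0.13 and -0.38 ± 0.12 (adjusted p = 0.0648 and 0.0716).

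The NF-kB and cytokine list went both ways, with 5 of 33 measured, 1 higher and 2 lower and a median of -0.20. Tnfaip2, a TNF-induced gene, went from 169, 127 and 173 CPM to 212, 261 and 205 CPM (log2 0.53 ± 0.12), a call that ended without DON 2 or control 2 (up to 0.0828). The falls of Nfkb2, an NF-kB subunit (-0.28 ± 0.08), and Cxcl10, a chemokine (-0.49 ± 0.15), were also called. The Nfkb2 call ended without any 1 of the DON libraries, control 1 or control 2 (adjusted p up to 0.212), and the Cxcl10 call without DON 1, DON 2, DON plus glutamate 3 or any 1 control (up to 0.181). The Cxcl10 call also ended in DESeq2 (0.102) and limma voom (0.0535). Vcam1, an adhesion molecule of activated vessels, did not pass at -0.20 ± 0.07 (adjusted p = 0.127).

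**Figure D3:**
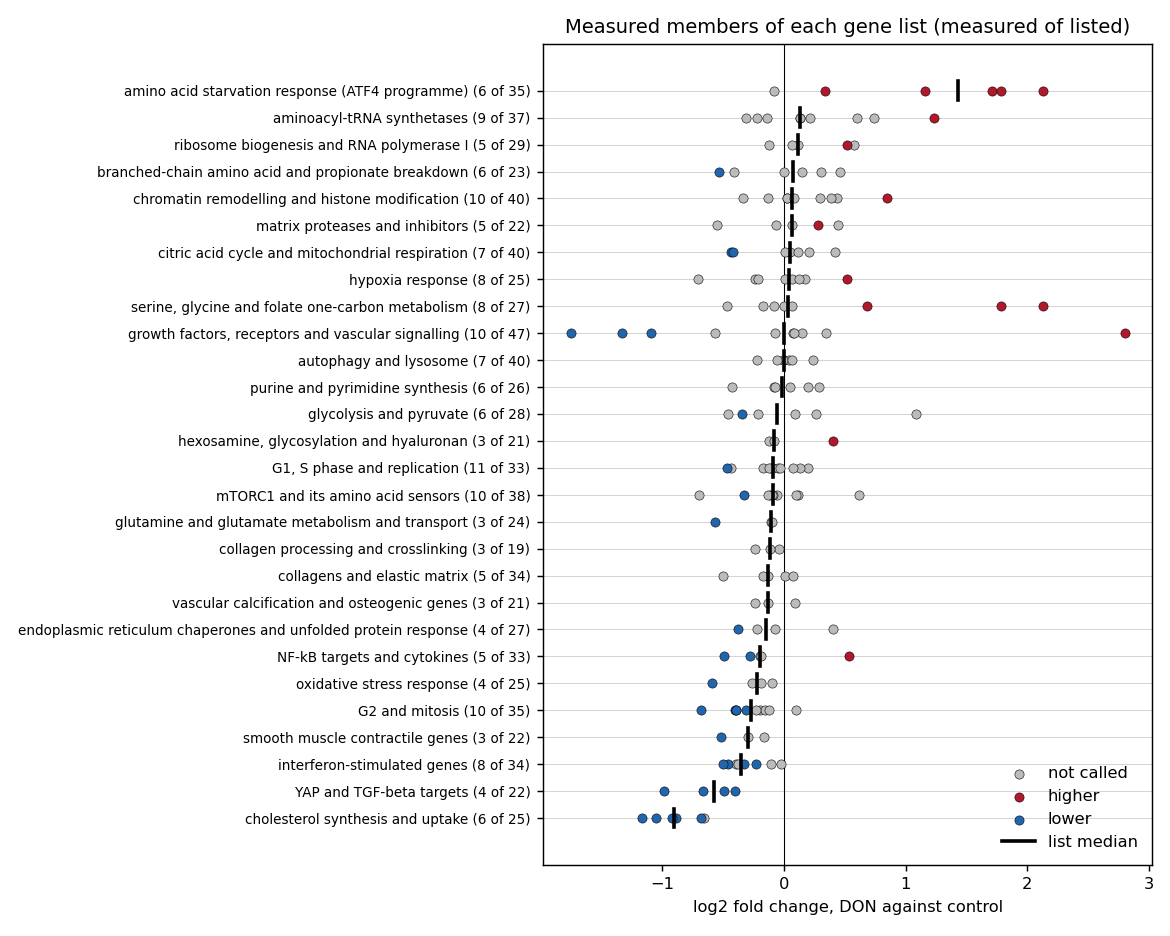
Log2 fold changes of the measured members of each gene list with at least 3 measured members, in red where called higher, blue where called lower and grey where not called, with a black line at the list median. The starvation list lies farthest to the right and the cholesterol list farthest to the left, and most other medians lie near 0.

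The enzymes that DON binds were hardly covered. The list of 16 enzymes that take the amide of glutamine had 2 measured genes, Ppat and Carns1, but Carns1, carnosine synthase, does not use glutamine and was listed in error. Ppat, which opens purine synthesis, was not called by edgeR or limma voom, was given no adjusted p by DESeq2 and did not have an unadjusted p under 0.05. It was at 21.03 ± 2.73 CPM in controls and 21.7 ± 3.47 CPM with DON (SD, n = 3; log2 0.05 ± 0.23). Glutaminase and asparagine synthetase were not among the genes read. Of 26 purine and pyrimidine genes 6 were measured and none was called by any of the 3 tools, while 3 had an unadjusted p under 0.05. The list median was -0.01. Ampd3, with the smallest p of the list, was at -0.42 ± 0.16 (adjusted p = 0.1415) and at 0.11 ± 0.36 in its second row. Gart and Paics, later purine enzymes, were at 0.19 ± 0.08 and 0.28 ± 0.13.

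Of 24 glutamine and glutamate genes 3 were measured. Glul, glutamine synthetase, which makes glutamine from glutamate, went from 112, 123 and 129 CPM to 60.6, 85.8 and 99.3 CPM (log2 -0.57 ± 0.15, adjusted p = 0.0219). DON 1 was the lowest library, and the call ended without it, without control 2 or without control 3 (adjusted p up to 0.1304). Got2, the mitochondrial aspartate transaminase, was at -0.11 ± 0.07 (adjusted p = 0.464), and Gclm, a subunit of glutathione synthesis, at -0.10 ± 0.20 (adjusted p = 0.838). In the hexosamine list, 3 of 21 were measured, with a median of -0.08 and a lowest value of -0.12. Gnpnat1, which acetylates glucosamine phosphate, was called, from 482, 503 and 482 CPM to 634, 695 and 610.1 CPM (log2 0.40 ± 0.08, adjusted p = 0.001703).

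In glycolysis 6 of 28 were measured, with a median of -0.06 and values from -0.46 to 1.09. Gpi1, the glucose phosphate isomerase, was the 1 called. It went from 3493, 3325 and 3394 CPM to 2684, 2596 and 2751 CPM (log2 -0.35 ± 0.07, adjusted p = 0.00202). In the citric acid cycle and respiration list 7 of 40 were measured and 2 were lower, with a median of 0.05. Cox4i1, a cytochrome oxidase subunit, was at -0.43 ± 0.10, a call that ended without control 2 (adjusted p = 0.0587). Atp5o, an ATP synthase subunit, went from 1281, 1238 and 1115 CPM to 1133, 818 and 761 CPM, where DON 1 lay among the controls. Its value of -0.42 ± 0.11 lost the call without DON 2, DON 3, control 1 or control 2 (up to 0.142) and in DESeq2 (0.11). Slc25a10, the mitochondrial dicarboxylate carrier, chosen after its value was seen, was at -0.52 ± 0.11 and called in every fit without 1 library. Of 25 hypoxia genes 8 were measured and Ndrg1, a gene of hypoxia and differentiation, rose from 592, 647 and 567 CPM to 848, 843 and 894 CPM (log2 0.52 ± 0.08, adjusted p = 5.91e-05). A second row of Ndrg1, Gm2895, was at 0.25 ± 0.12 and did not pass (adjusted p = 0.2535). Bnip3, a mitophagy receptor raised by hypoxia, was at -0.24 ± 0.08 (adjusted p = 0.101).

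The other stress lists held few calls. Of 27 genes of the endoplasmic reticulum and unfolded protein response 4 were measured. Eif2ak3, the kinase PERK, was called at -0.38 ± 0.11, a call that ended in 4 fits without 1 library, those without DON 1, DON 2, control 1 or control 3 (up to 0.222), and in DESeq2 (0.05165). Of 25 oxidative stress genes 4 were measured and Prdx2 was called lower. Of 38 genes of mTORC1 and its sensors 10 were measured, with a median of -0.09 and values from -0.70 to 0.61. The fall of Rragc, a GTPase that signals amino acids to mTORC1, at -0.33 ± 0.10, was the 1 call. That call ended in 6 of the 9 fits, all but those without DON 2, DON plus glutamate 1 or DON plus glutamate 3 (up to 0.151), and in DESeq2 (0.0657). None of 7 measured autophagy and lysosome genes of 40, none of 2 heat shock genes of 20 and none of 3 calcification genes of 21 were called in edgeR, DESeq2 or voom. Unadjusted p was under 0.05 for 1, 0 and 0 of them.

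The chromatin and ribosome assembly lists each held 1 rise. Of 40 chromatin genes 10 were measured and 1 was called, with a median of 0.07. That is near the 8.52% called among all genes read, so the count does not set the list apart. Phf10, a subunit of the PBAF remodelling complex, went from 1580, 1587 and 1596 CPM to 2661, 3059 and 2855 CPM (log2 0.85 ± 0.07, adjusted p = 2.64e-09), while Dpf1, a related gene, was at 0.43 ± 0.22 (adjusted p = 0.288) and Kdm6b, a histone demethylase, at 0.30 ± 0.10 (adjusted p = 0.0608). Of 29 genes of ribosome assembly and RNA polymerase I 5 were measured and Nop14, a factor of the small subunit, went from 369.9, 397 and 417 CPM to 501, 684 and 508 CPM (log2 0.51 ± 0.10, adjusted p = 0.00187).

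Some further changes, called in every fit without 1 library, were picked after their values were seen. Ifrd1, a regulator of stressed and differentiating cells, went from 328, 354 and 328 CPM to 546, 564 and 555 CPM (log2 0.72 ± 0.08, adjusted p = 8.17e-07). Slc25a33, the mitochondrial pyrimidine nucleotide carrier, went from 175, 198 and 204 CPM to 329, 325 and 295 CPM (log2 0.72 ± 0.09, adjusted p = 1.10e-05). Rises were also read for 3 genes whose proteins work in mitochondria, with Chchd10 at 0.94 ± 0.19, the ribosomal protein Mrpl13 at 0.91 ± 0.15 and the topoisomerase Top1mt at 0.65 ± 0.12. Cd3eap, a subunit of RNA polymerase I, was at 0.68 ± 0.13, Utp14a and Noc2l, nucleolar proteins, at 0.45 ± 0.09 and 0.42 ± 0.09, and Prmt3, a methyltransferase of ribosomal protein, at 0.48 ± 0.08. Tspyl4, of the nucleosome assembly family, was at 0.85 ± 0.10, and Rcn3, a calcium-binding protein of the endoplasmic reticulum, was lower at -0.50 ± 0.08.

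Overlaps of 2 kinds bear on the reading of rows as opposite-strand genes. The first is genes read by at least 2 rows, of which there were 211. In 15 of these the row with more counts was called. The second row had the same sign in 13 of the 15 and was also called in 4, Apobr, Slc6a9, Tgfb3 and Acss2. Over all 211 genes 145 (68.7%) had the same sign in both rows. Across genes, which are not independent replicates and whose rows share libraries, Pearson's r was 0.62, and 0.35 without Slc6a9 and Apobr. Rows of 1 gene can also hold the same reads. For Casp9 the rows Cela2a and Ctrc had identical values, at log2 -0.12 ± 0.11 and a mean of 159.8 counts. Agreement between rows of a gene is therefore not independent support for the reading.

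The second kind is pairs of genes that overlap each other on opposite strands, each read through the other's row. In 406 such pairs, 216 (53.2%) had the same sign and r across pairs was 0.17. In 47 pairs at least 1 gene was called and in 4 both were. Slc6a9 rose while Ccdc24, its partner, was at 0.02 ± 0.12 (near 0 and of either sign over the alternatives), and Paqr3 rose beside Bmp2k at 0.03 ± 0.10. Phf10 rose beside 1600012H06Rik at -0.20 ± 0.13. Ost4, a subunit of the oligosaccharyl transferase, fell (log2 -0.48 ± 0.08) where Agbl5, a tubulin deglutamylase, rose (0.54 ± 0.12), the latter a call that ended without control 1 (adjusted p = 0.0548). The other 3 doubly called pairs moved the same way, Mars with Ddit3, Tbce with B3galnt2 (0.49 ± 0.10 and 0.47 ± 0.08) and Aldh1l2 with D10Wsu102e. In the last, D10Wsu102e read 10.9 CPM in controls and 22.8 with DON beside 583.9 and 2551 CPM for Aldh1l2, and the part of reads given the wrong strand was not tested. The D10Wsu102e call ended without DON 3, control 1 or control 3 (adjusted p up to 0.0881).

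**Figure D4:**
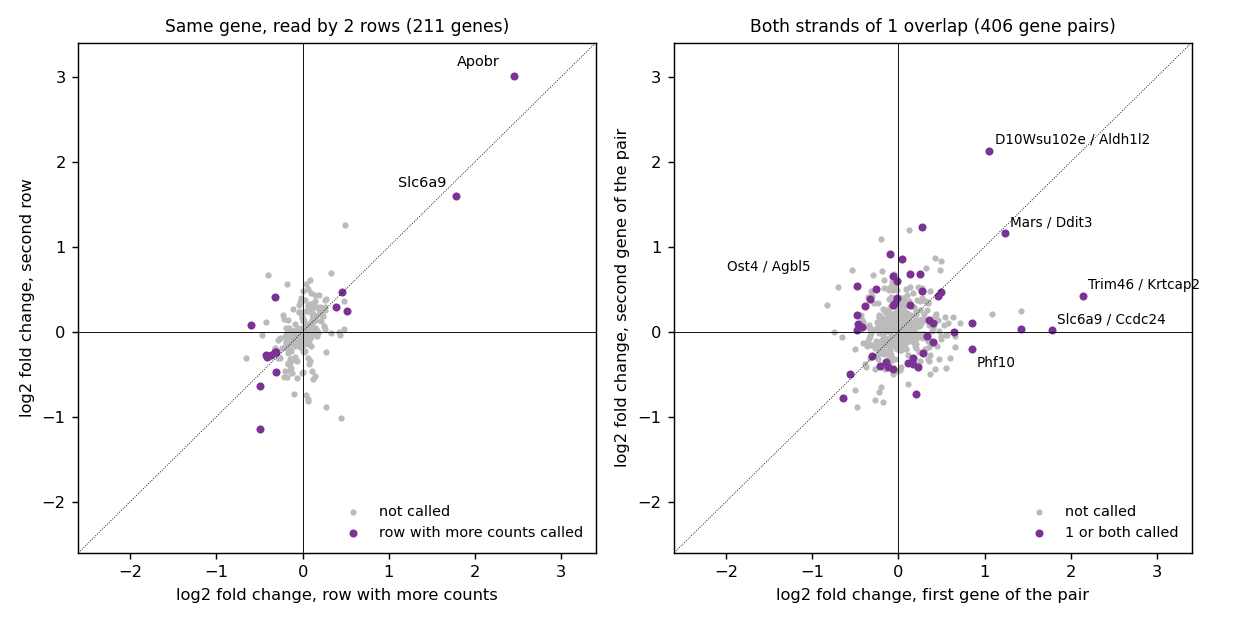
On the left, the log2 change of a gene by its row with more counts and by its second row, for 211 genes; on the right, the log2 changes of the 2 genes of 406 overlapping pairs, in purple where called. The dotted line marks equal values: Slc6a9 and Apobr lie near it on the left, while Slc6a9 with Ccdc24 and Trim46 with Krtcap2 lie far below it on the right.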

How the data were processed

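RNA of 9 MOVAS libraries (3 control, 3 DON, 3 DON plus glutamate) was counted per gene. The deposited values are whole-number read counts. STAR, HTSeq and mm10 are named without versions in the submitters' processing notes, and per the labels RNA was purified on silica columns and sequenced by BGI. The strand setting, library kit and annotation are not given in the sources used here. Row identifiers were matched to GENCODE M21 on mm10 (53274 of 53379 rows), and rows were read as the opposite-strand gene because the counts lie there. That choice followed from the values, and it does not separate overlapping transcripts on 1 strand.

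The main test was the two-sided quasi-likelihood test of edgeR 4.0.16 (R 4.3.3), after filterByExpr and TMM scaling. All 9 libraries entered 1 fit, which left 6 residual degrees of freedom, and p-values were adjusted by Benjamini-Hochberg over all 4731 tested rows. Called means adjusted p under 0.05. The standard error of a log2 change was derived from its F value. DESeq2 1.42.0 and limma 3.58.1 voom were alternatives, with other scalings, filters, thresholds, a replicate block and each library left out in turn. The script was tested on simulated counts. The replicates of a group all differed by more than sampling noise.

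Members and gene lists were chosen with earlier results of these data known. Named genes are the 15 largest rises and falls that were called in the fit and in all 9 fits without 1 library, without overlap between the groups and with a mean of 5 CPM or more in the group that is higher. The rule also names, by p, up to 5 members of each list and the measured enzymes that DON binds. For several lists the text gives only some of these members, mainly those called. Genes outside this rule were chosen after their values were seen, and among the uncalled genes these include Psph. One of the named falls is counted but not reported here. Promoters are from RefSeq (GRCm38.p6).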

Additional observations from a re-analysis of the deposited data

How the results depend on the processing

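Of the 299 rows and 211 genes called, a test against a minimum of 1.5-fold kept 24 rows and 18 genes, and an adjusted p under 0.01 kept 136 rows and 96 genes. Leaving out 1 library at a time gave 173 to 318 rows and 120 to 226 genes. The count of genes fell to 130 without control 1, 122 without control 2, 120 without DON 2 and 131 without DON 3. Other alternatives stayed within 1.5 times the count: 230 rows and 173 genes by the DESeq2 Wald test, 289 and 208 by limma voom, 235 and 164 with no filter, 323 and 231 with only the 2 groups, and, chosen after seeing the data, 342 and 234 with a covariate for the share of counts in rows lacking an opposite gene and 220 and 148 without control 3, DON 1 and DON plus glutamate 2. DESeq2 gave no adjusted p for 19 of the 211 called genes, among them Maats1, B4galnt2, Akr1b7, Pck2, Tgfb2, Ereg, Fzd6 and Pdgfra, and for 1 or more members of many lists. Without composition scaling the calls of Nek2, Eif2ak3, Ifi35, Nfkb2, Cxcl10 and Rragc ended (adjusted p from 0.0691 to 0.109), and with no filter those of Cebpb, Timp3, Ifi35, Nfkb2, Cxcl10 and Rragc (0.0606 to 0.202). Requiring at least 200 bases of overlap left 142 genes. Same-numbered control and DON libraries did not deviate together (correlations of -0.14 to -0.02 in 3 pairs), so the numbers were not taken to pair the samples. The fit with the replicate number as a block called 221 rows and 159 genes. Over 117 named genes and their alternatives, 2298 of 2556 values kept direction and side of the threshold, 215 lost a call, 32 gained one and 11 changed sign. All sign changes were in uncalled genes near 0. Ppat was -0.0365 without DON 3 and -0.0507 without control 2 (highest 0.17), and Psph was 0.05615 without DON 3 and 0.0109 without control 3 (lowest -0.22). Gclm was 0.0894 without control 1 (lowest -0.24), and Bmp2k -0.02625 without control 2 (highest 0.11). Ccdc24 was -0.0786 without DON 2, -0.0444 without control 2, -0.0647 without control 3 (highest 0.16), -0.00465 without control 3, DON 1 and DON plus glutamate 2 together and -0.00774 with no filter. The cause of these changes was not tested. At 1304980 to 1342286 counts per library, changes under 1.5-fold are hard to detect for genes of few counts, and most listed genes have no opposite-strand row.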

Other observations

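Of the 2032 tested rows that could not be read as 1 opposite-strand coding gene, 79 were called, 38 higher and 41 lower. Calls were rarer there (3.89% of rows, against 8.15% of rows read as 1 gene). By what lies opposite, 7.97% of rows over coding exons, 4.97% over noncoding exons, 2.64% over introns, 1.58% beyond a gene's end and 2.36% over nothing annotated were called. Calls rose with level among the genes read, and these shares were not matched for level. The rows named here were chosen after their values were seen, and each stayed called without any 1 library.

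Some of these rows lie beside genes of the starvation response. Row B4galt2, which touches an exon of Slc6a9 by fewer than 50 bases, went from 20.03, 13.4 and 23.4 CPM to 68.8, 62.6 and 62.1 CPM (log2 1.76 ± 0.19). Row Il4i1, which lies opposite both Atf5 and Tbc1d17, was at 1.62 ± 0.11. Its span overlaps that of row Nup62, read above as Atf5. Row Il4i1 held 654, 691 and 591 counts in controls, beside 593, 634 and 544 for row Nup62. With DON it held 2313, 1777 and 2013 counts, beside 2259, 1720 and 1960. These rows may hold many of the same reads and are not independent. Row C77080, which touches Yars, the tyrosyl-tRNA synthetase, was at 0.85 ± 0.14, and row Gm45095, which touches Cebpg, a partner of Atf4, was at 0.58 ± 0.12.

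Neighbouring rows moved together at 2 places. On chromosome 7 the rows Eif3c, Gm25579, Cln3 (read as Apobr) and Il27 lie side by side on the minus strand from position 126546455 on, and all rose, Eif3c from 19.3, 26.7 and 25.8 CPM to 86.8, 109.8 and 79.6 CPM. Nothing is annotated opposite Eif3c and Gm25579. On chromosome 5 the rows Gm27553, Gm27997, Gm28030 and Gm27286, between 100421968 and 100429507, lie opposite exons of the noncoding gene 5430416N02Rik and rose by 0.78, 0.80, 0.79 and 0.77 on the log2 scale. These 4 short rows lie opposite 1 noncoding gene and are not independent.

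Among the falls, row Gm38056 went from 2705, 2578 and 2461 CPM to 1615, 1449 and 1482 CPM (log2 -0.77 ± 0.07). Row Fam57b, which touches Aldoa, the glycolytic aldolase, by fewer than 50 bases, was at -0.44 ± 0.08. Row Ifi27 was at -1.02 ± 0.23, beyond the end of Ifi27l2a, an interferon-induced gene. Row Gm26637, opposite Eif2ak2, the antiviral kinase PKR, and Sult6b1, was at -0.55 ± 0.11.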
